A study of Mus musculus with 8 samples.

Results

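The 10 genes described here encode proteins of the killing machinery of natural killer (NK) cells and cytotoxic T cells. They were taken by name, with earlier results of these data known. They are the granule genes Gzma, Gzmb, Prf1 and Nkg7, the secreted factors Ccl5 and Ifng, the receptors Klrd1, Klrk1 and Ncr1, and the transcription factor Eomes, 10 of the 30406 genes that all libraries shared. Unique molecular identifiers (UMIs, each standing for 1 captured transcript) were summed per library and per cluster of the deposited annotation and divided by the total of that cluster in that library, as counts per 1000000 (CPM). The genes are followed across the NK cluster (830 cells), the T cell cluster Tc (1830 cells), the gamma-delta T cell cluster gdTc (668 cells) and the type 2 innate lymphoid cell cluster ILC2 (1195 cells), out of 32457 annotated cells.

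The study asked how leukocytes of the brain and its borders respond to transient middle cerebral artery occlusion (MCAO), a mouse model of ischemic stroke. Cells were sorted from adult male C57BL/6 mice as CD45iv- CD45+, which keeps leukocytes that an antibody injected into the blood had not reached. Of the 8 single-cell libraries, 4 came from brain parenchyma (1 control, replicates 1 and 2 at 24 h after MCAO, and 1 at 72 h), 2 from pia and 2 from dura (each 1 control and 1 at 24 h). No mouse carried a transgene, and every group other than the 24 h brain was 1 library. The controls are named naive mice in the methods and sham-operated in a legend, and the reporting summary says that repeat experiments were pooled by compartment. How many mice and which length of occlusion lie behind each library is not given in the sources used here. One label of the control pia, its title, says brain, and the library was used as pia, as its remaining labels give it. With 1 library in nearly every group, p-values measure only the spread left between libraries, which may be technical. In the fits over time and tissue that spread is mostly how far the 24 h differences of the tissues disagree. The test pools part of it over all genes, so a gene's p-value need not reflect its own disagreement.

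NK cells and cytotoxic T cells kill by releasing granules. Perforin (Prf1) opens the way for granzymes (Gzma, Gzmb), serine proteases that start cell death in the target, and Nkg7 is a membrane protein of the granule. Receptors decide when this happens: Klrk1 (NKG2D) and Ncr1 (NKp46) activate, and Klrd1 (CD94) pairs with NKG2 proteins to read a non-classical MHC class I molecule. Ccl5 is a chemokine that draws T cells and monocytes, Ifng is the type II interferon that activates macrophages, and Eomes is a T-box transcription factor of NK cell and memory T cell differentiation. In ischemic brain, NK cells and T cells are among the lymphocytes that enter the tissue.

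All 10 are protein-coding genes (GENCODE M21 on GRCm38, which is mm10). Gzma lies at chr13:113093825-113100981 on the minus strand, Gzmb at chr14:56258838-56262260 on the minus strand and Ncr1 at chr7:4337724-4345164 on the plus strand. Klrd1 (chr6:129591782-129598775, plus strand) and Klrk1 (chr6:129610323-129623864, minus strand) are neighbours in the NK gene complex of chromosome 6. Prf1 lies at chr10:61297833-61304680 on the plus strand, Ifng at chr10:118441046-118445892 on the plus strand, Nkg7 at chr7:43437073-43438249 on the plus strand, Ccl5 at chr11:83525778-83530518 on the minus strand and Eomes at chr9:118478212-118486132 on the plus strand. The 250 bases before the transcription start (RefSeq, GRCm38.p6) were at hand for 8 of the 10, all but Klrd1 and Ccl5. Those of Ncr1, Gzma and Gzmb are printed 5′ to 3′ on the strand of the gene because Ncr1 and Gzma had the highest NK over Tc ratios and Gzmb is the granzyme called between tissues in both NK fits below. Capitals mark the Runx core, TGTGGT or ACCACA on the other strand.
Ncr1, chr7:4337465-4337714, plus strand, 1 of 2 RefSeq starts: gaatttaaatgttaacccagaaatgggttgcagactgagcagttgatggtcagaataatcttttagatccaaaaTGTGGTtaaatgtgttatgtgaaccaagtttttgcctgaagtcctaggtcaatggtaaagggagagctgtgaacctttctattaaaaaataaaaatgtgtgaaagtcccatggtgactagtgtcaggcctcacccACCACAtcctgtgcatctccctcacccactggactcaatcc
Gzma, chr13:113100982-113101231, minus strand: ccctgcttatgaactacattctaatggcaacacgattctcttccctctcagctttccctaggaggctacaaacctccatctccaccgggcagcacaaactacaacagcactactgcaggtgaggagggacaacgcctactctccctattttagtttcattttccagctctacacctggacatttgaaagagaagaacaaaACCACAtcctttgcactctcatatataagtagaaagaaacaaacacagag
Gzmb, chr14:56262335-56262584, minus strand: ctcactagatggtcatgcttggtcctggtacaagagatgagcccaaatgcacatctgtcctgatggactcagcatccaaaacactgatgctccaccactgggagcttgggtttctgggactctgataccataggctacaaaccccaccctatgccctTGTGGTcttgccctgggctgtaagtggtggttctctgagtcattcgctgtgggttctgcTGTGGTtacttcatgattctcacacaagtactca

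The letters of the Runx core were found in 6 of the 8 upstream stretches, against 14.2% of 27025 upstream stretches of the same length over all genes. Beside the 3 printed genes these were Prf1, Nkg7 and Klrk1, and Ifng and Eomes held no match in this window. Letters of an ETS core (AGGAAG or CTTCCT) were in 2 of the 8, Prf1 and Nkg7, against 29.2% of all stretches. Letters of a T-box site (GGTGTGA or TCACACC), the kind of site Eomes binds, were in 1 of the 8, Nkg7, against 3.31% of all. These are matches of letters, not binding sites, and they are given as a description only.

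Libraries held 6591898 to 20754181 UMIs over all barcodes, and the median NK cell 965 to 2157. Kit version 3 was used for brain 72 h and dura 24 h, and version 2 for the rest. Brain 24 h replicate 2 and brain 72 h stood apart in how they were counted: their tables list 31053 features against 32285 in the other 6. In the NK cluster of these 2 libraries the ribosomal protein gene Rps21 stood at 5449 and 6003 CPM against 359 to 560 in the others, and Tomm6 at 8.72 and 4.91 CPM against 476 to 656. Of 2675 genes with a mean of at least 50 CPM in NK and Tc, 14 were higher and 14 lower by at least 4-fold without overlap in both clusters, and 0 of the 10 genes were among them. Smaller shifts did separate the 2 libraries: in NK, Gzma, Prf1, Ifng and Eomes were higher and Nkg7 and Klrk1 lower in both of them than in all 6 others. How many of all genes separated in this way was not counted, so whether these genes stand out is not known. Brain 24 h replicate 1 has the same tissue and time as replicate 2 and the longer list. In NK, replicate 2 stood at 0.304 times replicate 1 for Nkg7 (95% counting interval 0.247 to 0.375) and at 0.534 for Ccl5 (0.480 to 0.595). These gaps thus lay between libraries of the same tissue and time label, while their length of occlusion is not given. NK cells made up 0.349% of the annotated cells of replicate 1 and 2.77% of those of replicate 2. Brain 72 h had no library with the longer list, so there feature list and time cannot be told apart. The fits over time and tissue, the UMI shares, the shares of cells and the NK over Tc ratios are also given from the longer list alone. The comparisons of brain 72 h and of Cd8 with Cd4 cells rest in part on shorter-list libraries and have no such version. Pairs of libraries shared 0 to 43 cell barcodes, at most 2 within the 4 clusters.

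Most markers were highest in the cluster they name. Klrb1c (542 ± 65.9 CPM, SD, n = 6 libraries with at least 30 NK cells), Klre1 and Klra8 were highest in NK, Trac (1416 ± 499, n = 8) and Cd8a (340 ± 176) in Tc, Trdc (3994 ± 2898, n = 4) and Cd163l1 in gdTc, and Gata3 (840 ± 257, n = 5) and Areg in ILC2. Exceptions were Tyrobp of the NK list, highest in the granulocyte cluster Granulo_2, Cd3e and Cd3g of the Tc list, highest in gdTc, and Il1rl1 and Il13 of the ILC2 list, highest in mast cells. Control brain and brain 24 h replicate 1 held only 16 NK cells each, so they are left out of the NK means and given beside them. Because these counts also built the clusters, and the authors named NK by Nkg7 and Gzma, differences between clusters are described without a test.

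Gzma and Ncr1 belonged to the NK cluster in every library. Gzma, which encodes granzyme A, stood in NK at 910 CPM in control brain, 2325 and 3204 in the 24 h brain replicates, 5227 in brain 72 h, 2528 in control pia, 1098 in pia 24 h, 1804 in control dura and 1409 in dura 24 h. In Tc it did not pass 117 CPM in any library, and within a library NK lay 13.9 to 105 times above Tc (median 37.1, 6 of 6 libraries, here and below with 0.5 UMI added to both sums). NK held 92.2% ± 5.30 of all Gzma UMIs of annotated cells (SD, n = 8 libraries). Ncr1, the activating receptor NKp46, stood at 823 CPM in control brain, 431 and 384 in the 24 h brain replicates, 486 in brain 72 h, 483 in control pia, 152 in pia 24 h, 555 in control dura and 249 in dura 24 h. Its level in Tc was 0 to 11 CPM, and NK held 94.3% ± 2.76 of its UMIs, the highest share of the 10 genes. The lowest NK library of either gene lay above the highest Tc library.

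Gzmb and Prf1, the granzyme and the pore protein, were also highest in NK, but Tc held a visible part. Gzmb in NK ran from 281 CPM in dura 24 h and 516 in control dura, over 697 and 904 in brain 24 h replicates 2 and 1 and 1659 in brain 72 h, to 1816 in pia 24 h, 1949 in control brain and 2707 in control pia. The dura libraries were the 2 lowest. In Tc, Gzmb was 39.5 to 671 CPM (median 192), and NK lay above Tc in 6 of 6 libraries by 2.24 to 16.9 times. NK held 65.4% ± 20.5 of the Gzmb UMIs and Tc 24.6% ± 17.5, and in dura 24 h Tc (76 UMIs) held no fewer than NK (71 UMIs). The highest Tc value, in brain 24 h replicate 1, rested on 30 UMIs found in 3 of 33 cells. Prf1 stood in NK at 532 and 800 CPM in the 2 libraries with the shorter feature list and at 129 to 217 CPM in the other 6. In Tc it was 0 to 74.4 CPM, and NK held 73.5% ± 14.9 of its UMIs.

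Nkg7 and Ccl5 were high in both NK and Tc. Nkg7 stood in NK at 6194 CPM in control brain, 5340 and 1622 in the 24 h brain replicates, 2165 in brain 72 h, 4447 in control pia, 3708 in pia 24 h, 4466 in control dura and 4368 in dura 24 h. In Tc it was 2096 to 3823 CPM in the 6 libraries with the longer list and 916 and 1009 in the other 2, and NK lay above Tc by 1.18 to 2.36 times within a library. This held in 6 of 6 libraries, with a mean log2 ratio of 0.71 (SD 0.39). The means, over unlike sets of libraries, were 3463 ± 1260 CPM in NK (SD, n = 6) and 2597 ± 1144 in Tc (SD, n = 8). By UMIs Tc, the cluster with more cells, held the larger part (50.4% ± 9.64 against 42.4% ± 7.93 in NK). Ccl5 averaged 9201 ± 1697 CPM in NK and 8426 ± 2873 in Tc, with NK above Tc in 4 of 6 libraries. By UMIs, in the 6 libraries with the longer list, Tc held 43.8% ± 11.0 of Ccl5 and NK 24.9% ± 10.8 (SD). Its highest NK values, 17196 and 17613 CPM, were those of control brain and brain 24 h replicate 1, the 2 libraries with 16 NK cells. Outside the lymphocytes, mDC2 dendritic cells averaged 2389 CPM of Ccl5, and the dendritic clusters together held 17.0% ± 10.9 of its UMIs.

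Ifng and Eomes, an effector and a transcription factor of the same cells, were low and overlapped between NK and Tc. Ifng in NK was 336 and 535 CPM in brain 24 h replicate 2 and brain 72 h and 23.7 to 130 in the 6 libraries with the longer list. In Tc it was likewise 269 and 339 CPM in those 2 libraries and 49.8 to 149 in the other 6. NK lay above Tc in 3 of 6 libraries, and Tc held 59.4% ± 14.0 of the Ifng UMIs. Eomes in NK stood at 43.3 CPM in control brain, 129 and 227 in the 24 h brain replicates, 157 in brain 72 h, 27.6 in control pia, 6.90 in pia 24 h, 134 in control dura and 146 in dura 24 h. The pia libraries were the lowest, on 2 UMIs and 1 UMI. In Tc it was 0 to 71.8 CPM.

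Klrd1 and Klrk1 were highest in NK and were also present in dendritic cells. Klrd1 (CD94) stood in NK at 1473 CPM in control brain, 1034 and 846 in the 24 h brain replicates, 599 in brain 72 h, 1409 in control pia, 760 in pia 24 h, 1104 in control dura and 665 in dura 24 h. NK lay 4.12 to 5.84 times above Tc. The mDC2 and mDC1 clusters averaged 280 and 223 CPM of Klrd1, above the 190 of Tc, and the dendritic clusters held 45.5% ± 19.0 of its UMIs against 30.6% ± 11.6 in NK. Klrk1 (NKG2D) stood in NK at 910 CPM in control brain, 775 and 584 in the 24 h brain replicates, 535 in brain 72 h, 856 in control pia, 663 in pia 24 h, 857 in control dura and 843 in dura 24 h. NK lay 2.19 to 5.09 times above Tc, where Klrk1 averaged 228 ± 70.6 CPM. Dendritic clusters held 32.0% ± 11.8 and macrophage clusters 11.0% ± 6.72 of the Klrk1 UMIs.

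**Figure D1:**
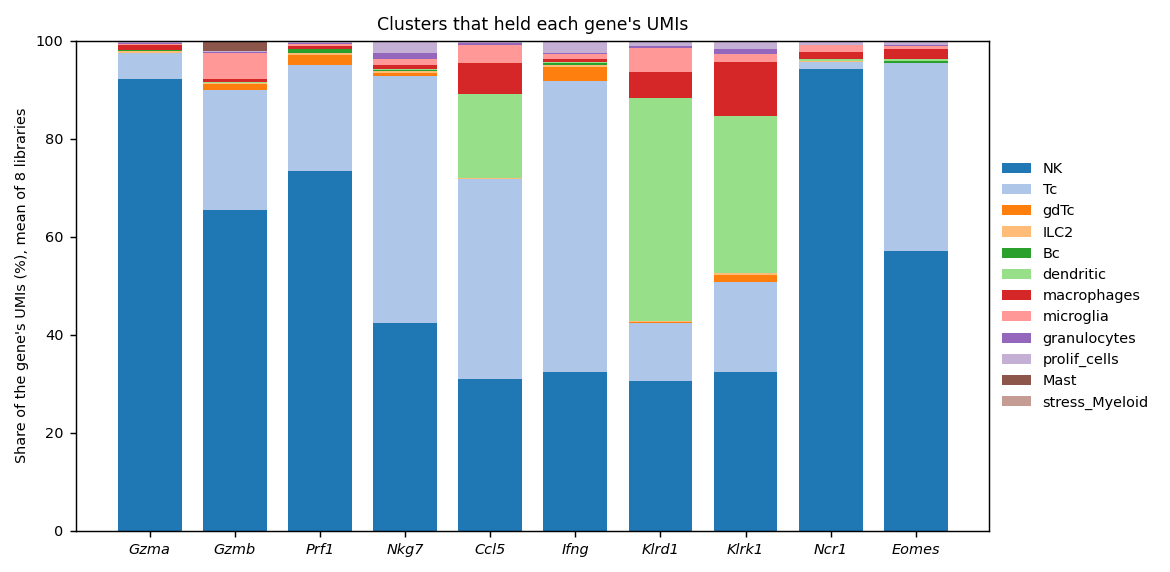
Share of each gene's UMIs that fell in each group of clusters (percent, mean of 8 libraries). NK holds 92.2% of Gzma and 94.3% of Ncr1, Tc holds 50.4% of Nkg7 and 59.4% of Ifng, and the dendritic clusters hold 45.5% of Klrd1.

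In gdTc the 10 genes were low. Gzma and Eomes had 0 UMIs in gdTc of all 8 libraries, which in the 350 cells of dura 24 h allows a level of up to 8.49 CPM (3 UMIs). Klrk1 had the highest mean of the 10 in gdTc: it stood at 72.8 CPM in brain 72 h, 212 in pia 24 h, 96.9 in control dura and 67.9 in dura 24 h, against a mean of 2.18 in B cells, which should lack it. These 4 libraries lay above every ILC2 library (0 to 47.9 CPM), and only that of pia 24 h reached the range of Tc (153 to 358 CPM). Gzmb in gdTc was 25.5 to 42.4 CPM on 2 to 9 UMIs per library, against 0 to 1.64 CPM in ILC2 and a mean of 1.79 in B cells. Nkg7 was 36.8 to 191 CPM and Ccl5 18.2 to 84.8, both overlapping with ILC2. Ifng was 90.9 CPM in brain 72 h on 5 UMIs and 0 in the other 3 libraries with at least 30 gdTc cells.

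In ILC2 the gene with the highest mean was Ccl5, at 172 CPM in brain 72 h, 55.9 in control pia, 159 in pia 24 h, 87.1 in control dura and 49.1 in dura 24 h, against a mean of 22.7 in B cells. Nkg7 stood at 9.58 to 98.0 CPM, against 13.8 in B cells. Eomes had 0 UMIs, and Gzmb and Ncr1 had 1 UMI each over the 5 libraries. In ILC2, macrophage markers (4 genes summed) reached 1929 to 6118 CPM and NK markers (6 genes summed, Nkg7 among them) 141 to 690 CPM. The part of RNA from other cells in these low values was not tested.

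Counted per cell, the same order appeared. To remove differences in depth each cell was thinned to 500 UMIs. Gzma was then seen in 33.4% ± 16.4 of NK cells (SD, n = 6 libraries), 1.47% ± 1.12 of Tc cells and 0.212% of B cells. Before thinning the Gzma shares were 39.5% and 2.38% in NK and Tc. Nkg7 was seen in 73.3% ± 14.9 of NK cells, 56.0% ± 17.0 of Tc cells and 0.741% of B cells (94.2% and 70.7% in NK and Tc before thinning). Gzmb was seen in 27.5% ± 13.5 of NK cells and 5.60% ± 2.83 of Tc cells, Klrd1 in 35.6% ± 13.8 and 8.99% ± 3.76, and Ncr1 in 16.7% ± 6.97 and 0.270% ± 0.338. Klrk1 was seen in 30.5% of NK, 10.5% of Tc and 6.28% of gdTc cells, against 0.147% of B cells. All but Eomes, at 5.10% of NK cells and 0% of B cells, and Ifng, at 8.71% and 0.347%, were thus found in more than 1 in 10 NK cells in the mean over these 6 libraries, Prf1 at 14.5%.

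From the longer list alone the UMI shares of Gzma and Ncr1 differed little, and the shares of NK cells with Gzma, Prf1 or Ifng were smaller. NK then held 91.9% ± 5.75 of the UMIs of Gzma, 93.4% ± 2.65 of Ncr1, 59.8% ± 20.6 of Gzmb, 69.5% ± 15.3 of Prf1 and 39.0% ± 5.37 of Nkg7, and Tc 63.1% ± 14.5 of Ifng (SD, n = 6 libraries). The dendritic clusters held 44.9% ± 19.7 of Klrd1. Over the 4 of these libraries with at least 30 NK cells, the thinned share of NK cells was 23.4% ± 4.25 for Gzma, 25.0% ± 14.1 for Gzmb, 8.03% ± 1.44 for Prf1, 3.07% ± 1.39 for Ifng and 81.6% ± 3.97 for Nkg7. The median NK over Tc ratio was then 27.3 for Gzma, 58.4 for Ncr1, 5.17 for Gzmb, 5.08 for Prf1, 1.44 for Nkg7 and 0.949 for Ccl5.

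The granzyme seen in an NK cell differed between the pia and the dura libraries, as a description with no test. At 500 UMIs per cell, cells with Gzmb and no Gzma made up 26.1% and 27.5% of NK cells in control pia and pia 24 h, 7.80% and 7.35% in control dura and dura 24 h, and 9.38% and 10.0% in brain 24 h replicate 2 and brain 72 h, the 2 libraries with the shorter list. Cells with Gzma and no Gzmb made up 8.70% and 10.8% in the pia libraries, 24.1% and 18.8% in the dura libraries, and 34.4% and 26.7% in the 2 brain libraries. Both were seen in 4.96% and 5.31% of dura cells, 10.9% and 10.0% of pia cells, 12.5% in brain 24 h replicate 2 and 33.3% in brain 72 h. At 1000 UMIs per cell the shares of cells with Gzmb alone were 40.5% and 38.8% in pia and 6.93% and 11.1% in dura, while the brain libraries then differed between themselves (6.82% in brain 24 h replicate 2 and 22.1% in brain 72 h). Gzma alone was then seen in 2.38% and 6.25% in pia, 25.7% and 19.4% in dura, and 31.8% and 12.6% in these brain libraries. Control brain and brain 24 h replicate 1, with 16 NK cells each, were left out of these counts. At 500 UMIs Gzmb was seen in 37.5% and 25% of their NK cells, and Gzma in 18.8% and 31.2%. At least 3 of the 10 genes were seen in 58.4% to 75.3% of NK cells and in at most 35.5% of Tc cells at 500 UMIs. Absence of a UMI at this depth does not show that a cell lacks the transcript.

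**Figure D2:**
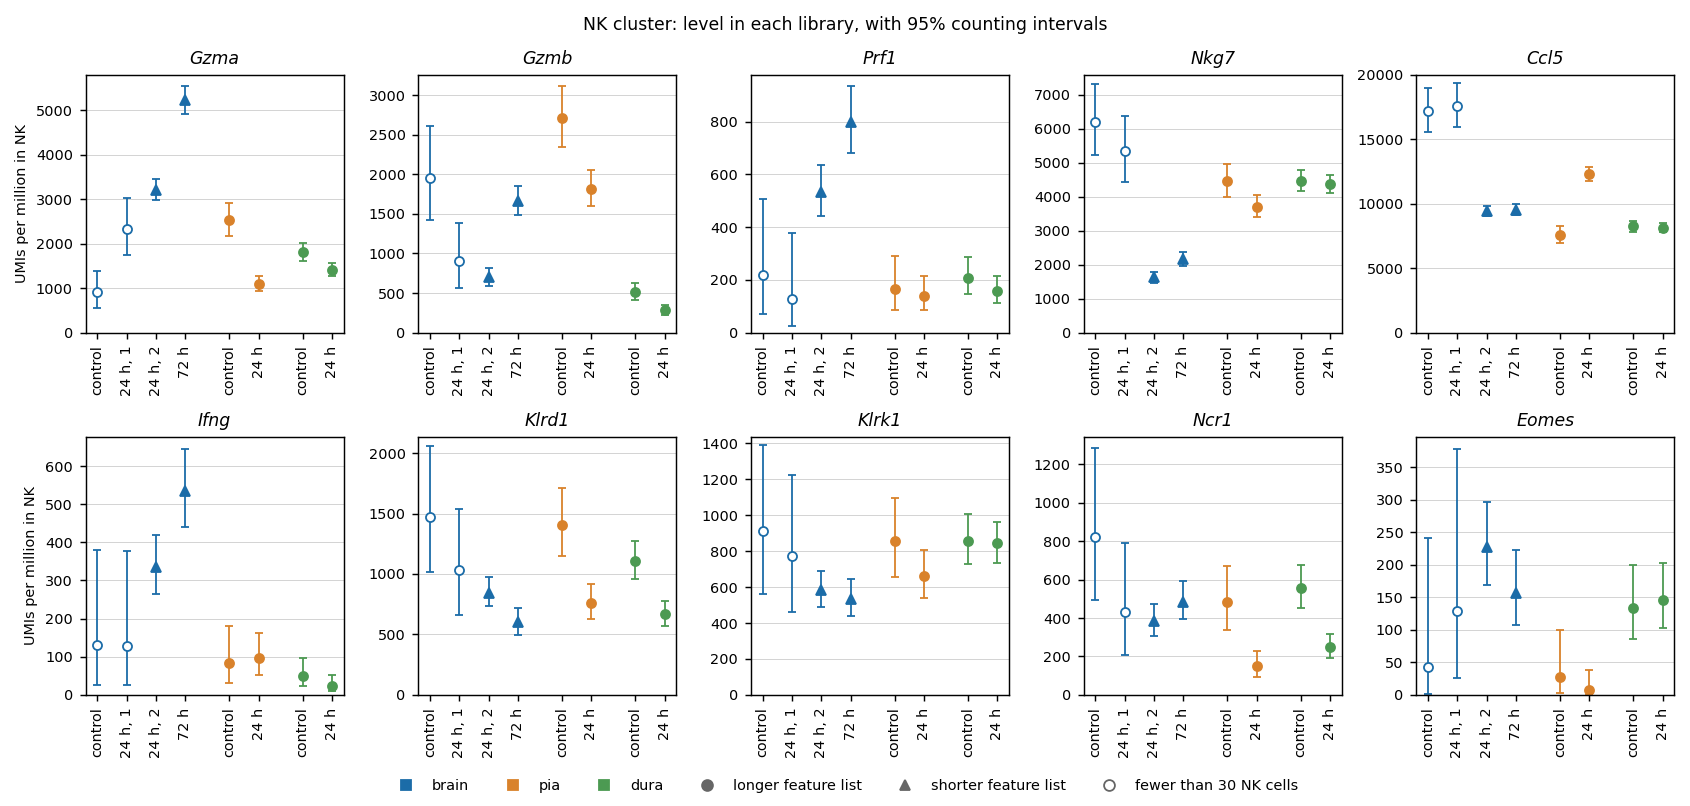
Level of each gene in the NK cluster of every library (CPM), with 95% exact Poisson intervals that cover counting error only. Open symbols mark libraries with fewer than 30 NK cells. Gzmb is lowest in the dura libraries (516 and 281), and Nkg7 is lowest in brain 24 h replicate 2 (1622) and brain 72 h (2165), the 2 libraries with the shorter feature list.

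The first comparison asked how the 10 genes in NK cells at 24 h after MCAO differed from the controls, with tissue held. By summed counts Gzmb, Klrd1, Ncr1 and Gzma were lower at 24 h, and the other 6 did not pass the test. At equal depth the share of NK cells with Gzmb was level in both meningeal pairs, as given below. The fit took the 5 libraries with at least 30 NK cells. It rested on the pia pair and the dura pair, since the brain had no control with that many cells. Its 1 residual degree of freedom holds how far the 24 h differences of pia and dura disagree, not a spread between replicates. The spread used for each gene was pooled in part over all genes. An SE or p-value below can thus be smaller than the gene's own disagreement would give. For Gzma the ratio was 0.434 in pia and 0.781 in dura, beside an SE of 0.12. Ncr1 fell by 1.33 on the log2 scale (SE 0.23, adjusted p = 3.60e-06, edgeR quasi-likelihood test), Klrd1 by 0.81 (SE 0.16, adjusted p = 6.76e-05), Gzma by 0.73 (SE 0.12, adjusted p = 1.30e-06) and Gzmb by 0.69 (SE 0.15, adjusted p = 0.00115). Of the genes tested over all, 81 of 4297, or 1.89%, were called (29 higher, 52 lower), beside 4 of the 10. Because the 10 were chosen with earlier results of these data known, this count is a description only. The 6 that did not pass had log2 differences of -0.37 (Ifng), -0.36 (Prf1), -0.17 (Klrk1), -0.14 (Nkg7), -0.02 (Eomes) and 0.32 (Ccl5, adjusted p = 0.415).

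Tissue by tissue, the ratios of 24 h over control carried counting intervals only. Ncr1 stood at 0.314 times its control in pia (95% interval 0.176 to 0.551), 0.449 in dura (0.322 to 0.622) and 0.523 in brain replicate 1 (0.217 to 1.18). Klrd1 stood at 0.539 in pia (0.408 to 0.713), 0.602 in dura (0.487 to 0.744) and 0.702 in brain replicate 1 (0.398 to 1.22). Gzmb stood at 0.671 in pia (0.555 to 0.811), 0.545 in dura (0.394 to 0.751) and 0.464 in brain replicate 1 (0.263 to 0.795). These 3 genes thus pointed down in all 3 tissues. So did Prf1 (0.833 in pia, 0.763 in dura and 0.597 in brain replicate 1), Nkg7 (0.834, 0.978 and 0.862) and Klrk1 (0.774, 0.983 and 0.852). Of these ratios only that of Nkg7 in pia had an interval under 1 (0.725 to 0.96). The brain ratio of Prf1 rested on 3 against 5 UMIs. In brain replicate 2, with the shorter feature list, Prf1 stood at 2.46 times the control (1.02 to 7.7). Gzmb, Klrd1, Ncr1, Nkg7 and Klrk1 lay below 1 in replicate 2 as well. How many of all genes pointed down in all 3 tissues was not counted. Gzma went both ways. It stood at 0.434 in pia (0.349 to 0.540) and 0.781 in dura (0.669 to 0.910). In brain replicate 1 it stood at 2.56 (1.52 to 4.46), on 54 against 21 UMIs among 16 cells each. Gzma was seen in 31.2% of those cells in replicate 1 and 25% in control brain. The interval leaves out the spread between cells. Ccl5 stood at 1.62 in pia (1.47 to 1.79), 0.987 in dura and 1.02 in brain replicate 1. A test of whether the 24 h difference itself differed between tissues took the 7 libraries with at least 10 NK cells (edgeR, no other tool was run on it). Gzma did not pass, with log2 differences of -2.34 (dura) and -3.09 (pia) against brain. The 1 residual degree of freedom of this test comes from the 24 h brain replicates, which differ in feature list, so it cannot decide the question.

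**Figure D3:**
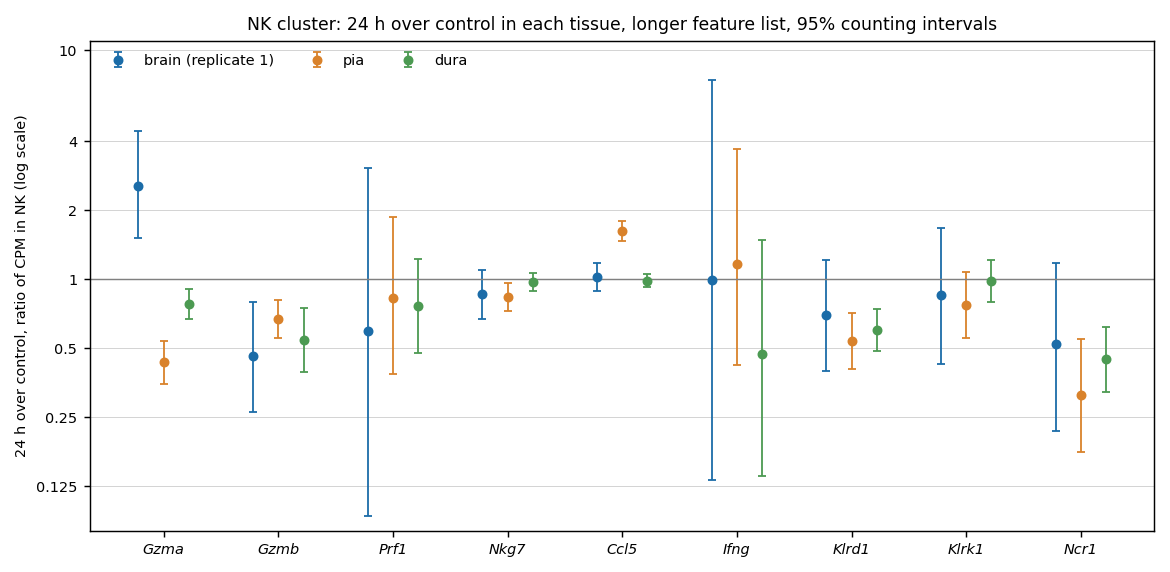
Ratio of the NK level at 24 h over that of the control (CPM over CPM, log scale) within brain (replicate 1), pia and dura, with 95% counting intervals, for the libraries with the longer feature list. Eomes is not drawn because it had 1 or 2 UMIs in some of these libraries. Gzmb, Klrd1, Ncr1, Prf1, Nkg7 and Klrk1 lie below 1 in all 3 tissues, Prf1 in brain on 3 against 5 UMIs. Gzma lies at 2.56 in brain, 0.434 in pia and 0.781 in dura.

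The calls depended on the fit. From the 6 libraries with the longer feature list and at least 10 NK cells, the same 4 genes were lower: Ncr1 by -1.29, Klrd1 by -0.79, Gzmb by -0.78 and Gzma by -0.47 on the log2 scale (adjusted p = 3.09e-06, 6.29e-05, 6.29e-05 and 0.0255, edgeR), against a background of 75 of 2152 genes, or 3.49%. With each of these 6 libraries left out in turn Ncr1 stayed called in 6 of 6 fits, Gzmb in 4, and Klrd1 and Gzma in 2, those without a brain library. Gzmb lost its call without either dura library, while its log2 difference stayed between -0.98 and -0.69 and that of Klrd1 between -0.82 and -0.70 over the 6 fits. Gzma stood at 0.06 without either pia library. DESeq2 called 1 gene in all and none of the 10, and the fit over all 7 libraries with at least 10 NK cells called 0 genes (edgeR). In the dura pair kit version and time cannot be told apart, and both pia libraries had version 2. Median UMIs per NK cell were 1454 in control pia against 1124 in pia 24 h and 1174 in control dura against 965 in dura 24 h. The 4 macrophage markers in NK, all above 0, summed to 2818 and 2695 CPM in the pia and dura controls and to 1774 and 1986 at 24 h. The 7 T cell markers summed to 1257 and 1463 CPM in the controls and to 1588 and 1195 at 24 h. Their part in the result was not tested. With cells thinned to 500 UMIs Klrd1 and Ncr1 stayed called, and Gzma (-0.29) and Gzmb (-0.19) did not. At that depth Gzmb was seen in 37% of NK cells in control pia and 37.5% in pia 24 h. In control dura and dura 24 h it was 12.8% and 12.7%. In the same order Gzma was seen in 19.6% and 20.8%, then 29.1% and 24.1%. Klrd1 was seen in 58.7% and 30.8%, then 42.6% and 23.7%, and Ncr1 in 23.9% and 5.83%, then 19.9% and 10.6%.

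Other genes of the killing machinery were taken from lists by role, chosen with earlier results of these data known. They moved the same way where they passed, beside 81 of 4297 genes (1.89%, 52 of them lower) over all. In NK at 24 h, 2 of 9 tested granule genes of a list of 13 were lower, Gzmc (-1.08 log2, adjusted p = 0.00318) and the granzyme-activating protease Ctsc (-0.91, adjusted p = 0.0190, edgeR). Of 16 tested NK receptors 2 were lower, Klre1 (-0.89) and Klra9 (-0.88), the latter from the Ly49 family whose near-identical members can share reads. Of the adaptors 1 of 7 was lower, Fcer1g (-0.36), of the transcription factors 1 of 9, Id2 (-0.62), and of the other chemokines and cytokines 1 of 3, Xcl1 (-0.74). Of these lists, 0 genes were called higher (edgeR), and 0 of the granule release, death ligand, cytokine receptor and maturation genes were called in either direction. The medians were -0.33 (granule), -0.43 (NK receptor), -0.22 (adaptor) and -0.53 (chemokine and cytokine), beside 0.02 over all genes tested. From the longer feature list Gzmc, Klre1, Klra9, Fcer1g, Id2 and Xcl1 were again lower, and Ctsc was not called.

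The second comparison asked how the tissues differed in NK cells, with time held. Against brain, Gzmb was lower in dura and higher in pia in direction in every fit, though not past the test in all of them. In the 5-library fit brain was represented by brain 24 h replicate 2 alone, a library with the shorter feature list. There 8 of the 10 genes were called in dura and 7 in pia, against a background of 1505 of 4297 genes, or 35.0%, in dura and 1231 genes, or 28.6%, in pia. With scaling by library size alone the split of those calls turned, from 41.9% to 58.0% higher in dura and from 40.8% to 56.3% in pia, as the median of all genes moved from -0.06 to 0.21 and from -0.07 to 0.18. Gzmb was at -1.50 in dura (adjusted p = 1.88e-11) and 1.05 in pia (adjusted p = 6.07e-07, edgeR). Ifng (-3.70 and -2.27), Prf1 (-2.02 and -2.26), Gzma (-1.66 and -1.58), Ncr1 (-1.01 and -1.42) and Eomes (-0.98 and -4.24) were lower in both dura and pia, Klrd1 (-0.68) in dura, and Nkg7 was higher in both (1.08 and 0.97).

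Most of this was not seen from the longer feature list, where brain was control brain and 24 h replicate 1 with 16 NK cells each. There 2 of the 10 genes were called in dura, against 102 of 2152 genes or 4.74%: Gzmb at -1.88 (SE 0.25, adjusted p = 1.44e-11) and Ccl5 at -1.12 (SE 0.12, adjusted p = 2.82e-17, edgeR). In pia 3 were called, against 68 genes or 3.16%: Gzmb at 0.68 (adjusted p = 0.0460), Nkg7 at -0.52 (adjusted p = 0.0199) and Ccl5 at -0.83 (adjusted p = 3.22e-09, edgeR). Nkg7 changed sign between the 2 fits, being at 1.08 and -0.41 in dura and at 0.97 and -0.52 in pia. Gzma, called lower in both tissues in the 5-library fit, stood at -0.06 in dura and 0.03 in pia. Gzmb and Ccl5 in dura kept their calls in 6 of 6 fits with 1 of these libraries left out, Ccl5 in pia in 5 (not without control pia) and Gzmb in pia in 2, while Nkg7 in pia kept its call in none. With all 7 libraries of at least 10 NK cells, 31 genes in dura and 9 in pia were called, and 0 of the 10 genes (edgeR). DESeq2 on the 5 libraries called 3 of the 10 in each tissue. Over all it called 174 genes in dura and 150 in pia, of 4297 that entered.

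In the longer-list fit, where 4.74% of all genes were called in dura and 3.16% in pia, chemokines were lower in both. In dura 3 of 3 tested chemokines were lower than in brain, Ccl3 (-4.15), Ccl4 (-2.93) and Xcl1 (-1.08), and in pia the same 3 were lower (-2.69, -2.62 and -0.59, edgeR, adjusted p below the threshold for each). Id2, a factor needed for NK cells and innate lymphoid cells, was lower in dura (-1.11) and pia (-1.10). Serpinb9, the inhibitor of granzyme B, was higher in both (2.74 and 2.69), as were the receptor chains Il2rb (1.03 and 1.05) and Ifngr1 (1.64 and 1.14). Gzmc was higher in pia (2.69) and Emb in dura (3.06), while Klra9 (-1.28) and Ltb (-0.98) were lower in dura. The brain parenchyma alone was passed over a Percoll gradient, so tissue and preparation cannot be told apart.

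At 72 h only brain was sampled, in 1 library, so its values are given with no test. Brain 72 h and brain 24 h replicate 2 share the shorter feature list and differ in kit. In NK, Gzmb was 2.38 times its level at 24 h (95% counting interval 1.97 to 2.89), Gzma 1.63 times (1.48 to 1.79), Ifng 1.59 times (1.18 to 2.16), Prf1 1.50 times (1.18 to 1.92) and Nkg7 1.33 times (1.16 to 1.54). Klrd1 was 0.708 times its 24 h level (0.560 to 0.893). Ccl5 (1.01, 0.951 to 1.08), Klrk1 (0.916, 0.705 to 1.19), Ncr1 (1.27, 0.941 to 1.71) and Eomes (0.693, 0.432 to 1.10) had intervals that include 1. Against brain 24 h replicate 1, which has 16 NK cells and the longer list, Gzma (2.25, 1.71 to 3.01), Gzmb (1.83, 1.18 to 3.00) and Prf1 (6.19, 2.08 to 30.3, on 3 UMIs at 24 h) were again higher and Klrd1 lower (0.579, 0.372 to 0.939). Nkg7 turned, at 0.405 times its level in replicate 1 (0.331 to 0.499). Ccl5, level with replicate 2, stood at 0.54 times replicate 1 (0.485 to 0.602). Against control brain, also with 16 NK cells, Nkg7 was at 0.349 (0.289 to 0.425), Ccl5 at 0.553 (0.496 to 0.618) and Gzmb at 0.851 (0.622 to 1.19).

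In Tc cells, none of the 9 genes with enough counts was called at 24 h against control. That fit took 7 libraries and called 0 of 4712 genes, or 0% (84 at an unadjusted p under 0.05, 0 by DESeq2), and Ncr1 was too low to test. Against brain, 8 genes, or 0.170%, were called in dura and 2, or 0.0424%, in pia, and again 0 of the 9. Nkg7 in Tc stood at 3572 CPM in control brain, 3823 and 1009 in the 24 h brain replicates, 916 in brain 72 h, 3491 in control pia, 3138 in pia 24 h, 2096 in control dura and 2728 in dura 24 h. Ccl5 in Tc stood at 9030, 11401, 4408, 4171, 9749, 11428, 7296 and 9930 CPM in the same order. For both genes the 2 lowest libraries were those with the shorter feature list, and brain 24 h replicate 2 stood at 0.264 (Nkg7, 95% counting interval 0.217 to 0.321) and 0.387 (Ccl5, 0.348 to 0.429) times replicate 1.

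Without brain 24 h replicate 2, and thus from the longer list alone, 3 calls appeared in Tc. Ccl5 was higher at 24 h by 0.32 on the log2 scale (SE 0.07, adjusted p = 0.0259, edgeR), against a background of 55 of 4247 genes, or 1.30%. In dura against brain Gzmb (-1.49, SE 0.39, adjusted p = 0.0342) and Nkg7 (-0.55, SE 0.13, adjusted p = 0.0167) were lower, against 126 genes or 2.97%. In pia against brain 0 of the 9 were called (edgeR), against 55 genes or 1.30%. The Gzmb difference rested in part on brain 24 h replicate 1, where all 30 Gzmb UMIs came from 3 of 33 cells: 13 from 1 cell with Cd4, 5 from 1 with Cd8 and 12 from 1 with neither. Of the role lists, Xcl1 (-0.98), Id2 (-0.63), Ikzf2 (-1.47), Cxcr6 (-0.76) and Ly6c2 (-0.76) were lower in Tc at 24 h in this fit. Id2 was lower in dura and pia (-1.50 and -1.57), as were Ccl4 (-1.62 and -1.88) and Ltb (-0.73 and -0.92), and Ifngr1 was higher in both (0.78 and 0.66). Also called in dura were Ccl3 (-2.34), Coro1a (-0.85), Cxcr6 (-0.79) and Ikzf2 (3.88). In Tc the test of a tissue difference in the 24 h response did not pass for any of the 9 genes (edgeR, no other tool was run on it). Its error term also comes from the 24 h brain replicates, which differ in feature list, so it cannot decide the question.

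The Tc cluster holds CD8 and CD4 T cells, and Nkg7 and Ccl5 were higher in the CD8 cells. Tc cells with a UMI of Cd8a or Cd8b1 and none of Cd4 were set against Tc cells with a UMI of Cd4 and none of Cd8a or Cd8b1, within libraries. Brain 72 h (78 and 34 cells) and dura 24 h (139 and 43 cells) had enough of both. The fit on these 2 libraries left 1 residual degree of freedom, with the spread pooled in part over all genes. Its SE and p-values therefore say little about the spread between libraries or between cells. Ccl5 stood at 5626 against 1648 CPM in brain 72 h and 15942 against 3925 in dura 24 h, a log2 difference of 2.03 (SE 0.08, adjusted p = 9.03e-10, edgeR). Nkg7 stood at 1284 against 543 CPM and 4781 against 1410, a log2 difference of 1.70 (SE 0.14, adjusted p = 7.47e-06, edgeR). Gzmb had 16 and 45 UMIs in the Cd8 cells and 0 in the Cd4 cells of these libraries. Its Cd8 level was 2.02 times (brain 72 h) and 4.30 times (dura 24 h) the level that 3 UMIs would give in the Cd4 cells. In brain 72 h the counting intervals overlapped (69.9 to 199 CPM in Cd8 and 0 to 74.1 in Cd4 cells). In dura 24 h they did not (221 to 406 and 0 to 86.7 CPM). Gzmb was called (adjusted p = 0.00779, edgeR). Of the 10 genes 5 passed the count filter and 3 of them were called, beside 34 of 1639 genes, or 2.07%, over all. Gzmb, with 0 UMIs in the Cd4 cells, passed that filter only through the Cd8 cells. The count of calls is therefore a description and no support for a pattern of the 10. Of those calls 61.8% were higher in the Cd8 cells, and 36.4% of 22 with scaling by library size alone. Ifng (1.74, adjusted p = 0.103) and Klrk1 (0.64, adjusted p = 0.739, edgeR) did not pass.

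In all 5 libraries holding 10 or more cells of each kind, Nkg7 and Ccl5 were higher in the Cd8 cells, with counting intervals that did not overlap. The share of all genes that did so was not counted. These intervals leave out the spread between cells: the 82 Ccl5 UMIs in Cd4 cells of pia 24 h came from 27.3% of 11 cells. Klrd1 and Klrk1 were higher in the Cd8 cells in 4 of these 5 libraries, and Ifng in 3. In brain 72 h Klrd1 stood at 91.7 CPM in Cd8 and 100 in Cd4 cells, and Klrk1 at 161 and 181. Gzma, Gzmb, Prf1 and Eomes had 0 to 2 UMIs in the Cd4 cells of each library, too few to place their level there. For Gzmb the Cd8 level of brain 24 h replicate 2 (47.7 CPM) and of control dura (231 CPM) lay under what 0 UMIs in their Cd4 cells allows (104 and 240 CPM). Of the role lists Ctsw (2.22), Xcl1 (3.84) and Ly6c2 (2.94) were higher in the Cd8 cells. Without the library as a block the comparison called 0 genes (edgeR), and with the limit at 10 cells it called 85 genes. Cells with neither, 454 of the 640 Tc cells in dura 24 h and 136 of 249 in brain 72 h, are in neither sum. Gzmb in them stood at 123 CPM in brain 72 h and 243 in pia 24 h, beside 122 and 248 in Cd8 cells. In brain 24 h replicate 2, control dura and dura 24 h it stood at 40.2, 180 and 76 CPM, beside 47.7, 231 and 303.

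**Figure D4:**
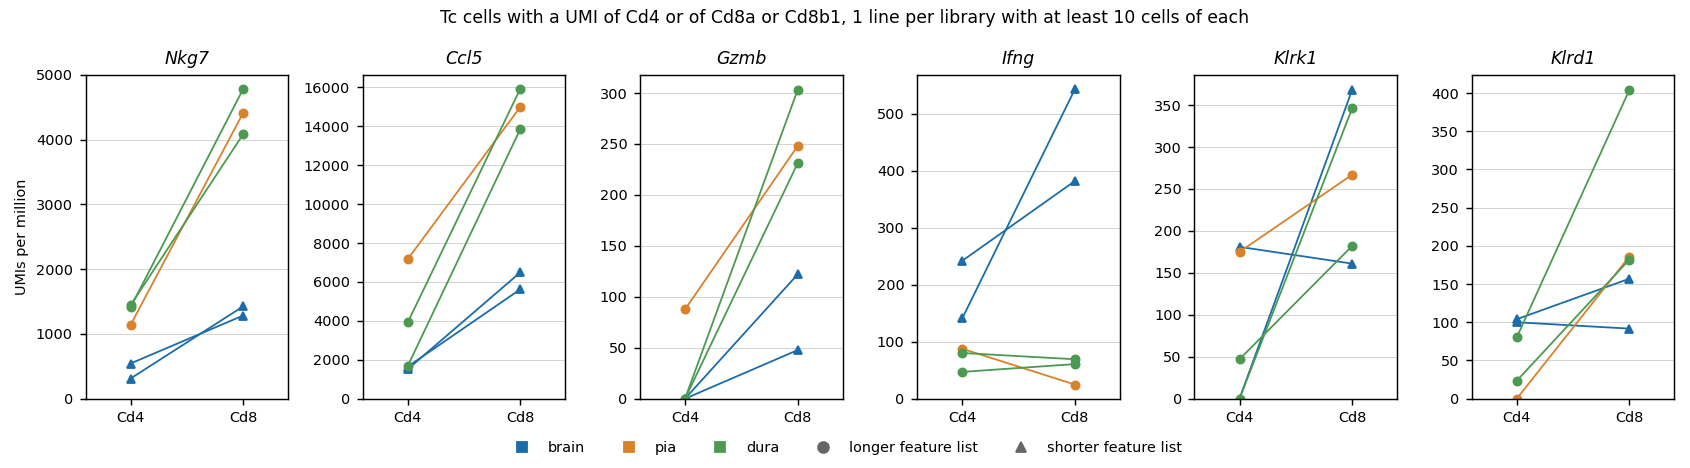
Level (CPM) in Tc cells with a UMI of Cd4 and in Tc cells with a UMI of Cd8a or Cd8b1, 1 line per library with at least 10 cells of each kind. Nkg7 and Ccl5 rise from Cd4 to Cd8 cells in all 5 libraries, Ccl5 lying at 1519 to 7180 in Cd4 cells and at 5626 to 15942 in Cd8 cells.

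The genes whose pattern over the 21 clusters was most like the mean pattern of the 10 included NK cell receptors, a chemokine and a transcription factor. By Pearson correlation of log2(CPM + 10) across 21 clusters among 6458 genes they were Klrc2 (0.977), Klre1 (0.975), Xcl1 (0.971), Klra7 (0.962), Tbx21 (0.960), Klrc1 (0.958), Samd3 (0.954), Stk32c (0.952), Il12rb2 (0.944) and Klrb1c (0.944). All 10 were highest in NK and second in Tc. Klrc1 and Klrc2 encode NKG2 partners of Klrd1, and Tbx21 (T-bet) is the T-box factor closest to Eomes in its role. Of the genes described here Prf1 lay nearest to the mean pattern (0.964) and Klrd1 farthest (0.804), followed by Klrk1 (0.809) and Ccl5 (0.827), the genes with the largest dendritic shares. The clusters share libraries and depth, so the correlations are a description with no test.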

How the data were processed

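Single-cell libraries were made with 10x 3' kits. The authors counted UMIs with Cell Ranger 6.0 on mm10 (per the submitters' processing notes), removed doublets with scDblFinder and assigned 21 clusters. The deposited files hold raw UMI counts per gene and cell, and a table of the cluster of each cell. Counts were summed per library and cluster over the 30406 genes that all libraries list. CPM and exact Poisson 95% intervals, which cover counting error only, were computed from these sums. Comparisons used the edgeR 4.0.16 quasi-likelihood test (filterByExpr, TMM, tissue and time as terms) in R 4.3.3 over libraries where the cluster held 30 cells or more (20 for Tc cells split by Cd8 and Cd4), with a Benjamini-Hochberg adjusted p below 0.05 as a call. The NK fit had 5 libraries and 1 residual degree of freedom, the Tc fit 7 libraries and 3, and the Cd8 against Cd4 fit 2 libraries and 1. The dispersions were moderated over all genes. The SE was taken as the log2 difference over the square root of the test statistic F. DESeq2 1.42.0 (as an alternative), library size scaling, no filter, thinning, kit as covariate, the longer feature list alone and leaving out libraries were tried. Cells were thinned to 500 or 1000 UMIs in Python 3.11.15. The tests were tried on simulated data. The 10 genes and the lists by role were chosen with earlier results of these data known. Beyond the 10, the genes named are, per list and comparison, up to 5 called genes by size of the fold, the cluster markers and the 10 most similar genes. Rps21 and Tomm6 were chosen after their values were seen.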

Additional observations from a re-analysis of the deposited data

Results flagged for a closer look

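The summed level of Gzma in the NK cluster moved in opposite directions at 24 h in brain and in the meninges. It stood at 2.56 and 3.52 times control brain in brain 24 h replicates 1 and 2, and at 0.434 and 0.781 times the control in pia and dura. The control brain value rests on 21 UMIs, found in 25% of 16 NK cells, against 31.2% of 16 cells in replicate 1. Replicate 2 has the shorter feature list. The test of the difference between tissues did not pass, with log2 differences of -2.34 for dura and -3.09 for pia against brain (edgeR). Its error term comes from the 24 h brain replicates alone, which differ in feature list, so it cannot decide the question.

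Barcodes that the authors left without a cluster, which no comparison used, also held UMIs of the 10 genes. Summed over the 10, they stood at 734 CPM in pia 24 h (95% counting interval 689 to 781) against 373 CPM in control pia (331 to 419). In control dura and dura 24 h the same sum was 1092 and 1136 CPM.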

How the results depend on the processing

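Counts of genes called moved with the processing. In Tc, dura against brain gave 39 genes by DESeq2, 32 with library size scaling, 117 with no filter and 4 with the kit as covariate, pia against brain gave 18, 11, 43 and 11, and 24 h against control gave 1 with no filter. In NK, 24 h against control gave 1 gene by DESeq2, 26 with no filter, 21 after thinning and 0 with at least 10 cells (edgeR). NK dura against brain gave 174, 443 (thinned), 31 (at least 10 cells) and 102 (longer feature list), and pia against brain 150, 390, 9 and 68. The Cd8 against Cd4 comparison gave 13 genes by DESeq2, 22 with library size scaling, 82 with no filter, 4 after thinning, 0 with no library block, 85 with at least 10 cells and 265 against all Tc cells without Cd8.

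Log2 differences of the 10 genes that changed sign were as follows. In Tc at 24 h, Gzmb was 0.11 (DESeq2), 0.03 (no filter), 0.45 (thinned) and 0.38 (kit), and Gzma 0.62 (kit). In Tc dura, Nkg7 was 0.10 and Klrd1 0.13 (no filter), and Ccl5 -0.05 (kit). In Tc pia, Gzmb, Klrd1 and Klrk1 were 0.13, 0.27 and 0.18 (no filter) and 0.01, 0.08 and 0.07 (kit). In NK at 24 h, Eomes was 0.01 (library size), 0.17 (thinned), 0.44 (at least 10 cells) and 0.07 (longer list), Nkg7 0.02 (thinned), and Gzma, Prf1 and Ifng 0.08, 0.12 and 0.22 (at least 10 cells). In NK dura with the longer list, Prf1 was 0.05, Nkg7 -0.41, Klrk1 -0.01 and Eomes 0.67. In NK pia, Ccl5 and Klrk1 were 0.20 and 0.24 (library size) and 0.11 and 0.15 (no filter), Klrk1 0.07 (thinned), Nkg7 -0.09 (at least 10 cells), and Gzma and Nkg7 0.03 and -0.52 (longer list). The cause was not tested. Of the alternatives, the longer feature list (its fits, shares and ratios, and its fits with 1 library left out), the limit of 10 cells and the wider reference in the Cd8 against Cd4 comparison were chosen after seeing the data.

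In NK the fits with 1 library left out used the longer list and libraries with at least 10 cells, except that the 5-library 24 h fit was also run without brain 24 h replicate 2 (53 genes). With 1 library left out, counts were 0 to 55 (Tc, 24 h), 0 to 126 (Tc, dura), 0 to 55 (Tc, pia), 16 to 93 (NK, 24 h), 66 to 104 (NK, dura) and 41 to 60 (NK, pia). The log2 ranges of genes whose sign in some of these fits differed from the reported value were, in Tc at 24 h, Eomes -0.15 to 1.05, Gzma -0.82 to 0.65, Gzmb -0.55 to 0.39, Klrk1 -0.34 to 0.32, Nkg7 -0.39 to 0.10. In Tc dura they were Ccl5 -0.19 to 0.34, Eomes -0.98 to 1.75, Gzma -0.65 to 1.50, Gzmb -1.49 to 0.79, Klrd1 -0.37 to 0.01, Nkg7 -0.55 to 0.22, Prf1 -0.93 to 0.11. In Tc pia they were Eomes -1.45 to 1.25, Gzmb -0.84 to 1.47, Klrd1 -0.19 to 0.19, Klrk1 -0.55 to 0.44, Nkg7 -0.06 to 0.66, Prf1 -1.03 to 0.01. In NK at 24 h they were Ccl5 -0.02 to 0.35, Eomes -0.08 to 0.23, Gzma -0.75 to 0.06. In NK dura they were Eomes 0.27 to 1.86, Gzma -0.74 to 1.34, Klrk1 -0.11 to 0.22, Nkg7 -0.46 to -0.18, Prf1 0.08 to 0.46. In NK pia they were Gzma -0.66 to 1.41, Ifng -0.46 to 0.19, Klrd1 -0.23 to 0.05, Klrk1 -0.11 to 0.04, Nkg7 -0.45 to -0.30, Prf1 -0.20 to 0.23. Leaving out a pia or dura library from the 5-library NK fit, or a library from the Cd8 against Cd4 fit, was not run because no residual degree of freedom remained.

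Over all alternatives the adjusted p (edgeR or DESeq2) in NK at 24 h ran from 2.62e-06 to 1.00 for Ncr1 (called in 11 of 13), from 6.29e-05 to 1.00 for Gzmb (7), from 2.63e-05 to 1.00 for Klrd1 (7) and from 1.47e-06 to 1.00 for Gzma (6). For Gzmb in NK it ran from 1.44e-11 to 0.0804 in dura (11 of 12) and from 1.28e-10 to 0.468 in pia (6), and for Ccl5 from 1.22e-18 to 0.983 in dura (7) and from 1.82e-09 to 0.947 in pia (6). In Tc, Ccl5 at 24 h ran from 0.0259 to 1.00 (1 of 13) and, in dura, Gzmb from 0.0342 to 1.00 (1) and Nkg7 from 0.0167 to 1.00 (1). In the Cd8 against Cd4 comparison Ccl5 and Nkg7 were each called in 6 of 7 alternatives and Gzmb in 4 of 5. No paired analysis was possible because replicate numbers exist only for the 24 h brain libraries. The 16 NK cells of control brain limit every brain comparison in NK.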
